A study of Mus musculus with 10 samples.

Results

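The genes that let myoblasts recognise each other, adhere and fuse were followed in muscle satellite cells (MuSCs) with and without Trpm7. They are 10 genes of the 24608 symbols in the count table, chosen by name and grouped here by role: the fusion protein gene Mymk, the ferlin genes Myof and Dysf, the caveolin gene Cav3, the cadherin genes Cdh15 and Cdh2, the junctional adhesion molecule genes Jam2 and Jam3, the co-receptor gene Cdon and the focal adhesion kinase gene Ptk2. MuSCs were sorted as YFP-positive cells from skeletal muscle 3 days after injury by cardiotoxin (CTX), and each of the 10 libraries was made from 3000 cells. Control mice were Trpm7+/+; Pax7CreERT2/+; Rosa26-YFP and Trpm7 cKO mice were Trpm7flox/flox; Pax7CreERT2/+; Rosa26-YFP, with 5 libraries per genotype. Both genotypes had a C57BL6 background, were adult and age-matched, and received tamoxifen (TMX) and CTX. The Pax7 locus drives the TMX-dependent Cre, so deletion and the YFP label are restricted to cells that expressed Pax7 at the time of TMX treatment and to their descendants. Libraries were prepared by CEL-Seq2, in which each counted molecule is the 3′ end of a transcript marked by a unique molecular identifier (UMI).

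After injury, MuSCs leave quiescence, proliferate as myoblasts, and then differentiate and fuse into multinucleated fibres. Cadherins and junctional adhesion molecules hold neighbouring cells together, CDON at these contacts passes the signal of adhesion on to differentiation, and the muscle-specific membrane proteins Myomaker and Myomixer drive the merging of membranes. Ferlins and caveolins shape, traffic and repair the membrane around this step, and focal adhesion kinase connects integrins to the cytoskeleton.

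Control libraries held 914361 to 1097709 counts (median 995138) and Trpm7 cKO libraries 205986 to 581121 counts (median 524959), with no overlap between genotypes (p = 0.00794, exact two-sided permutation test over libraries, the lowest p this design can reach). Values below are CPM after scaling by TMM factors (normalized CPM, the counts of a gene relative to the scaled total of its library), and fold changes are log2 differences of Trpm7 cKO from control. Pax7 was detected in every library at 166 to 259 normalized CPM in control and 265 to 557 in Trpm7 cKO MuSCs. Trpm7 itself was at 66.6 to 90.1 normalized CPM in control and 46.4 to 101.2 in the libraries labelled Trpm7 cKO, with a log2 fold change of −0.09 (SE 0.20, adjusted p = 0.723 by edgeR), so its counts did not separate the genotypes. Only 3′ ends were counted, and the position of the deleted part of Trpm7 is not given in the sources used here, so whether these counts could show the deletion was not tested. The paper reports the deletion in its cKO mice from genetic analysis of Trpm7 and from TRPM7 immunofluorescence of MuSCs on myofibres, rather than from these counts. Below, Trpm7 cKO means the libraries with that label. The summed level of 22 MuSC identity markers was 4225 to 4995 normalized CPM in control and 3952 to 7155 in Trpm7 cKO libraries (p = 0.0794, exact permutation test), with the lowest value in Trpm7 cKO replicate 4. Of the marker lists named for other cells, the leukocyte, endothelial, pericyte and smooth muscle, and mature myofibre sums did not overlap between genotypes. The fibroadipogenic, Schwann cell and erythroid sums overlapped. The 48 leukocyte markers in the table summed to 533 to 884 normalized CPM in control and 1999 to 8674 in Trpm7 cKO libraries (exact permutation p = 0.00794). All 32 that passed the filter described below were called higher in Trpm7 cKO, against 24.6% of all genes tested. A marker could pass that filter through the Trpm7 cKO libraries alone, so this count follows in part from the filter. Cd3e, Cd3d, Cd79a, Nkg7 and Ncf4 had no count in any control library. The sum was highest in Trpm7 cKO replicates 4 and 5 (8674 and 8062) and lowest in Trpm7 cKO replicate 2 (1999). Endothelial markers summed to 9.65 to 90.3 in control and 177 to 888 in Trpm7 cKO libraries, and mature myofibre markers to 228 to 451 in control and 116 to 194 in Trpm7 cKO libraries (exact permutation p = 0.00794 for each). The other marker sums, in the same order, were 414 to 669 and 899 to 1281 for pericytes and smooth muscle (p = 0.00794), 2835 to 4735 and 3369 to 6277 for fibroadipogenic cells (p = 0.0794), 323 to 380 and 343 to 508 for Schwann cells (p = 0.0238), and 1.99 to 178 and 146 to 3274 for erythroid cells (p = 0.0159, all exact permutation tests). The part of these cells in the results below was not tested. Fits with a leukocyte score are given as alternatives, but the score did not overlap between genotypes, so that the score and the genotype cannot be told apart in them. In sorted cells measured in bulk, fewer cells of one state and less RNA per cell cannot be told apart. The library names of Trpm7 cKO replicates 4 and 5 share a number whose meaning is not stated, and the labels do not say that libraries came from separate mice, so p-values measure the spread between these libraries.

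**Figure D1:**
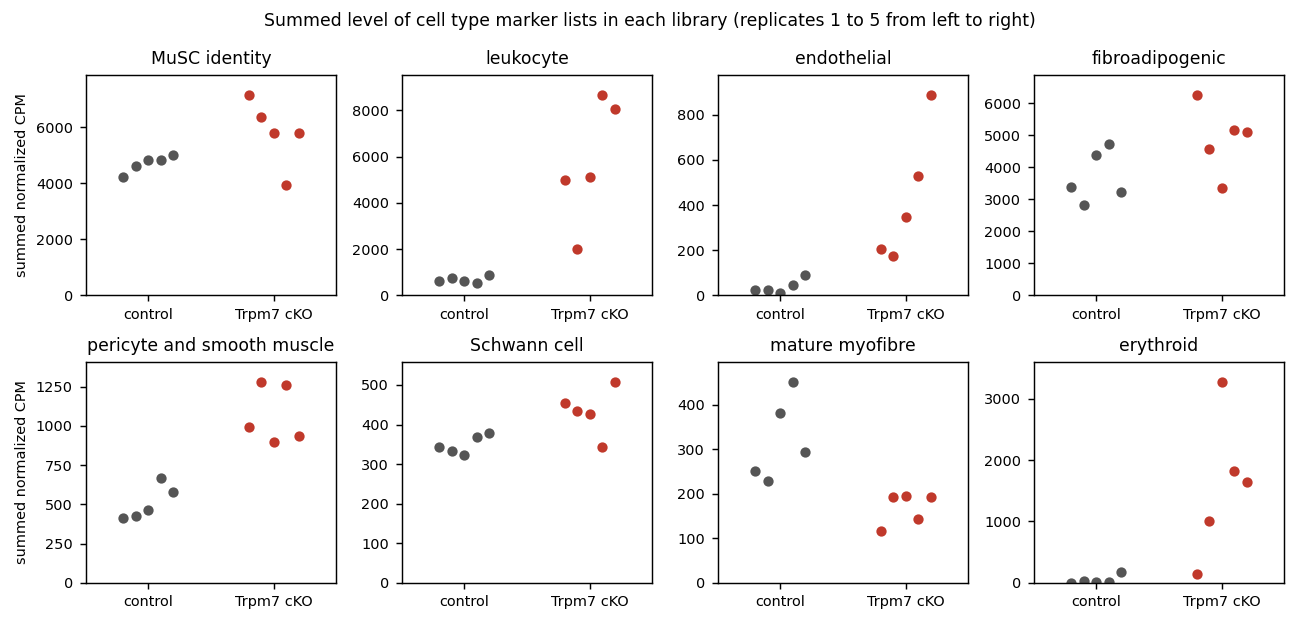
Summed normalized CPM of 8 marker lists in each library (y axes start at 0; 1 point per library, replicates 1 to 5 from left to right within control, grey, and Trpm7 cKO, red). The leukocyte, endothelial, and pericyte and smooth muscle sums of the 5 Trpm7 cKO libraries all lie above the 5 control libraries, the mature myofibre sums all lie below, and the sums of the other 4 lists overlap.

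Of the 10 genes, 7 had enough counts to be tested. Mymk, Myof, Jam3 and Ptk2 were lower in Trpm7 cKO MuSCs, Cdon was higher, and Cdh15 and Cdh2 did not pass the test (edgeR quasi-likelihood F test, Benjamini-Hochberg adjusted p below 0.05). Dysf, Cav3 and Jam2 had too few counts. The filter asked for 13.4 CPM or more in at least 5 libraries, which Mymk met with 5 control and 4 Trpm7 cKO libraries and the other 6 met with all 10. Among the related genes named below, Cavin4 met it only with control libraries. Kirrel, Boc, Adam12, F11r, Elmo1 and Elmo2 met it mainly with Trpm7 cKO libraries. Whether these genes were tested at all therefore depended on the group where they were high. Over the 7753 genes tested, 24.1% were lower and 24.6% higher in Trpm7 cKO, against 4 and 1 of these 7 genes. The median log2 fold change was −0.65 over the 7 genes and −0.01 over all genes tested. Past a log2 fold change of 1.5 as well, Myof was the 1 lower gene (3.53% of all genes tested) and no gene was higher (8.49%). The normalized CPM of the genotypes did not overlap for 2 lower genes, Mymk and Myof (17.9% of all genes tested), and for 1 higher gene, Cdon (16.6%).

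**Figure D2:**
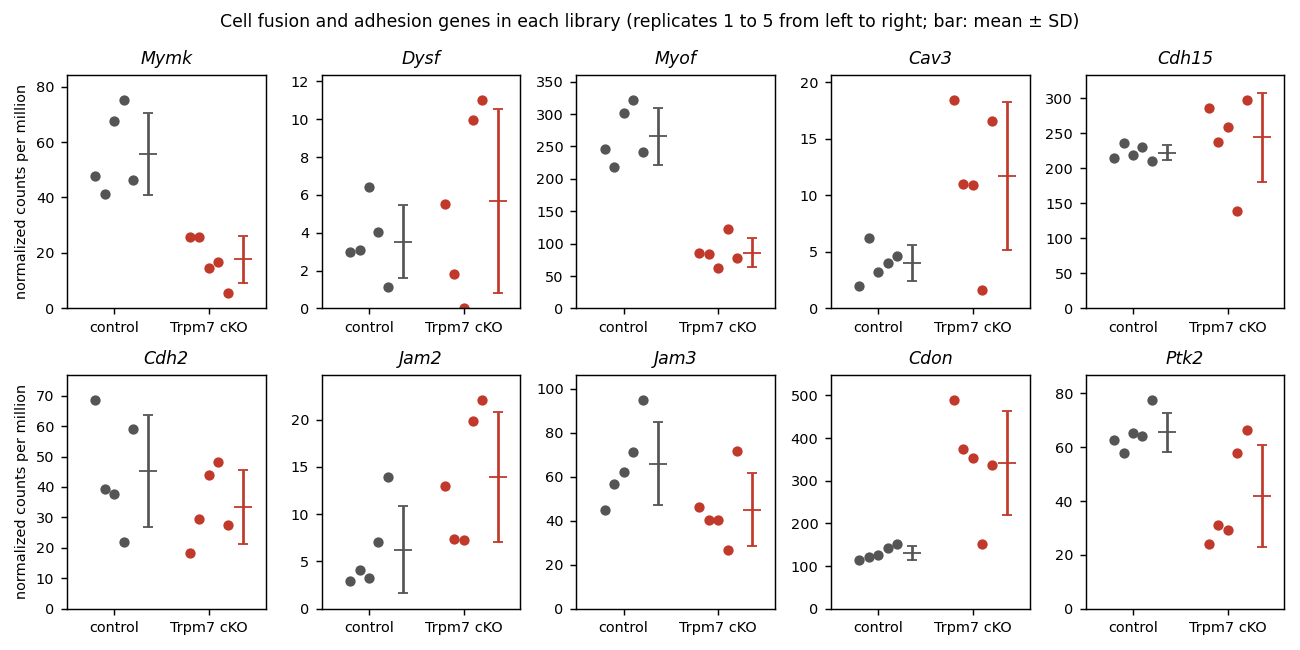
Normalized CPM of the 10 genes in each library (y axes start at 0; 1 point per library, replicates 1 to 5 from left to right; bars, mean ± SD, n = 5 per genotype). Mymk and Myof lie lower in all 5 Trpm7 cKO libraries than in any control library, and Cdon lies higher in all 5, with Trpm7 cKO replicate 4 just above the highest control.

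Promoter sequences are shown for Myof, Cdh15 and Cdon, which had the most counts of the 10 genes and of which Myof fell, Cdon rose and Cdh15 did not pass the test. Each runs 5′ to 3′ from 250 bases before to 50 bases after the RefSeq transcription start (GRCm38.p6), with capitals marking each E-box, CANNTG, the motif bound by MyoD and other basic helix-loop-helix factors.
Myof, chr19:38043528-38043827 (−): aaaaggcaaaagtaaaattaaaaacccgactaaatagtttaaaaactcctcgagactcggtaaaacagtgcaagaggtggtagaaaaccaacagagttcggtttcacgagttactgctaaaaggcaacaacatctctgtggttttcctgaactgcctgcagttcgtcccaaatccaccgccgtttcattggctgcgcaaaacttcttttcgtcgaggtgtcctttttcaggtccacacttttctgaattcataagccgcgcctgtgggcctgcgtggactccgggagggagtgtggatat
Cdh15, chr8:122848124-122848423 (+): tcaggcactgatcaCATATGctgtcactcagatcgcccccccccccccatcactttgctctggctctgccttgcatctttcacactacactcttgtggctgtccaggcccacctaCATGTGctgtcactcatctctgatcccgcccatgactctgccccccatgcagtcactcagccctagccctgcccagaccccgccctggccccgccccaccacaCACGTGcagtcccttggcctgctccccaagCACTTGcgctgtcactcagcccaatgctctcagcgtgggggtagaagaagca
Cdon, chr9:35451826-35452125 (+): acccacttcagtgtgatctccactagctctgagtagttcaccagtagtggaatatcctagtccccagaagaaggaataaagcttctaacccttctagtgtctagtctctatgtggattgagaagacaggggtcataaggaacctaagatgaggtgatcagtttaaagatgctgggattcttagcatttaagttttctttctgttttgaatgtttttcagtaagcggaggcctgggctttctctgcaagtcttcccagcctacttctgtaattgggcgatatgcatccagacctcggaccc
The Cdh15 window held 4 E-boxes and the Myof and Cdon windows held 0, where 72.3% of 32851 mouse promoter windows of this length held at least 1. CANNTG reads the same class of site on both strands, so the search covers both. The narrower forms CAGCTG (16.3% of windows) and CAGGTG (20.2%, either strand), which CANNTG includes, the AP-1 motif TGANTCA (7.81%) and the MEF2 motif (3.19%) were found in none of these 3 windows. The RefSeq starts of Cdon and Cdh15 lie inside the longer spans of their GENCODE genes, with the whole windows within the genes, and other starts were not searched.

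Of the 2 fusion protein genes of muscle, Mymk fell, and Mymx, too sparse to be tested, had 1 count in all Trpm7 cKO libraries together. Mymk, which encodes Myomaker, spans chr2:27061636-27072179 on the minus strand with 5 exons. Its counts were 48, 40, 63, 75 and 40 in control replicates 1 to 5 and 14, 14, 4, 10 and 1 in Trpm7 cKO replicates 1 to 5. Normalized CPM were 47.7, 41.3, 67.6, 75.3 and 46.3 in control and 25.9, 25.8, 14.6, 16.6 and 5.52 in Trpm7 cKO MuSCs. Every Trpm7 cKO library lay below every control library, and Trpm7 cKO replicate 5, with 1 count, was the lowest. The mean fell from 55.6 ± 14.9 to 17.7 ± 8.53 (SD, n = 5 each), a log2 fold change of −1.49 (SE 0.28, 95% interval −2.07 to −0.91, adjusted p = 0.000179 by edgeR). Leaving out single libraries gave −1.65 to −1.35. With the leukocyte score as a covariate the value was 0.26 and the call was lost (adjusted p = 0.897). The score was at 3.63 to 4.17 mean log2 CPM of the tested markers in control and 5.45 to 7.32 in Trpm7 cKO libraries, and the fit with it called 1.37% of genes lower and 4.18% higher. Mymk was at 25.8 in Trpm7 cKO replicate 2, which had the lowest leukocyte sum of its genotype (1999), and at 25.9 in replicate 1 (4982). In Trpm7 cKO replicates 3, 4 and 5 it was at 14.6, 16.6 and 5.52 (sums of 5137, 8674 and 8062). The part of leukocytes in these values was not tested.

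Mymx, which encodes Myomixer, had 7, 8, 9, 22 and 9 counts in control and 0, 0, 0, 1 and 0 in Trpm7 cKO replicates 1 to 5. It was below the filter in both genotypes. The groups did not overlap, and the 1 count was in Trpm7 cKO replicate 4. Pooled over libraries and scaled, 55 counts against 1 was a 24.7-fold lower level, with a 95% interval of 4.26 to 994 that covers counting error only. Without the filter, its log2 fold change was −4.33 (SE 0.81, adjusted p = 1.16e-06 by edgeR).

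Among the ferlins, large calcium-binding membrane proteins, Myof was lower and Dysf was too sparse to compare. Myof, for myoferlin, which acts in myoblast fusion and endocytic recycling, spans chr19:37899036-38043577 on the minus strand. Its normalized CPM were 246, 218, 301, 322 and 242 in control and 85.0, 84.7, 62.1, 122.6 and 77.3 in Trpm7 cKO replicates 1 to 5. The highest Trpm7 cKO library, replicate 4, stood well below the lowest control library. The mean fell from 266 ± 43.9 to 86.3 ± 22.3 (SD, n = 5 each), with a log2 fold change of −1.58 (SE 0.18, 95% interval −1.95 to −1.20, adjusted p = 8.05e-07 by edgeR) and −1.77 to −1.49 with single libraries left out. With the leukocyte score it was −1.65 and the call was lost (adjusted p = 0.0855). Dysf, for dysferlin, the sarcolemma repair protein, spans chr6:84008590-84211060 on the plus strand and had 3, 3, 6, 4 and 1 counts in control and 3, 1, 0, 6 and 2 in Trpm7 cKO replicates. These counts overlap throughout, and a difference was not detectable at this depth (log2 fold change 0.43, SE 0.63, adjusted p = 0.627 without the filter, by edgeR). A ratio of Myof to Dysf could not be formed in Trpm7 cKO replicate 3, where Dysf had 0 counts, and was not tested.

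Cav3 encodes the muscle caveolin, a scaffold of caveolae in the sarcolemma, and lies at chr6:112459505-112472872 on the plus strand. It had 2, 6, 3, 4 and 4 counts in control and 10, 6, 3, 1 and 3 in Trpm7 cKO replicates, or 4.01 ± 1.57 against 11.7 ± 6.54 normalized CPM (SD, n = 5 each). The genotypes overlapped, with Trpm7 cKO replicate 4 at the low end. Without the filter, the log2 fold change of 1.22 (SE 0.53) had an adjusted p of 0.0708 by edgeR and did not pass. Its partners in caveolae varied by member. Of 8 tested caveola genes, 1 was lower and 3 higher in Trpm7 cKO, against 24.1% and 24.6% of all genes tested. The lower gene was Cavin4, the muscle cavin, at 27, 27, 26, 32 and 22 counts in control and 2, 0, 1, 1 and 0 in Trpm7 cKO replicates. No Trpm7 cKO library came near a control library, and the log2 fold change was −3.79 (SE 0.44, adjusted p = 1.09e-06 by edgeR), a fitted value that depends on the added prior since each Trpm7 cKO library had at most 2 counts. Cavin4 passed the filter only through its 5 control libraries (25.5 to 32.1 normalized CPM, against 0 to 3.70 in Trpm7 cKO). Pooled, 134 counts against 4 was 15.1-fold lower, with a 95% counting interval of 5.75 to 56.1. Cavin2 (log2 fold change 1.05) and Cav2 (0.66) were higher, as was Cav1, the broadly expressed caveolin, by 0.38 (SE 0.15, adjusted p = 0.043 by edgeR). The call for Cav1 was lost when any 1 of control replicates 1 to 4 or Trpm7 cKO replicates 1, 2 and 4 was left out, with 0.23 and an adjusted p of 0.201 without Trpm7 cKO replicate 1.

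The cadherins, which join cells through calcium-dependent contacts between like molecules, did not pass the test. Cdh15, for M-cadherin of MuSCs and myoblasts, lies at chr8:122847966-122867397 on the plus strand, where the predicted gene Gm20388 overlaps its 3′ end on the same strand. Its normalized CPM were 215, 236, 219, 230 and 211 in control and 286, 237, 259, 139 and 298 in Trpm7 cKO replicates 1 to 5. Control libraries lay close together, while Trpm7 cKO libraries spread to both sides of them, with replicate 4 lowest. The mean was 222 ± 10.7 in control and 244 ± 63.2 in Trpm7 cKO MuSCs (SD, n = 5 each), and the log2 fold change was 0.11 (SE 0.17, 95% interval −0.24 to 0.47, adjusted p = 0.617 by edgeR). Its sign turned with scaling, to −0.19 when scaled on MuSC identity genes and to −1.10 without scaling, where the median of all genes was −0.26 and −1.15. Without scaling Cdh15 was called lower (adjusted p = 0.00698 by edgeR), as were 66.6% of all genes.

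Cdh2, for N-cadherin, lies at chr18:16588877-16809246 on the minus strand. Normalized CPM were 68.6, 39.2, 37.5, 22.1 and 59.0 in control and 18.5, 29.4, 43.8, 48.1 and 27.6 in Trpm7 cKO replicates. The genotypes overlapped. The mean was 45.3 ± 18.5 in control and 33.5 ± 12.2 in Trpm7 cKO MuSCs (SD, n = 5 each), with a log2 fold change of −0.43 (SE 0.31, 95% interval −1.08 to 0.22, adjusted p = 0.271 by edgeR). Without the low-count filter Cdh2 was called lower, at −0.62 with an adjusted p of 0.0471 by edgeR. It was also called lower without scaling, at −1.57 (adjusted p = 0.000255 by edgeR). The ratio of Cdh2 to Cdh15 counts was 0.0961 to 0.319 in control and 0.0645 to 0.345 in Trpm7 cKO libraries (p = 0.444, exact two-sided permutation test).

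Of 5 tested partners and relatives of the cadherins, 1 was lower and 2 were higher, against 24.1% and 24.6% of all genes tested. Ctnna1, for the α-catenin that links cadherins to actin, fell by 0.98 on the log2 scale (SE 0.16, adjusted p = 4.87e-05 by edgeR). Its genotypes did not overlap, as for 17.9% of all genes tested in that direction. Jup, for plakoglobin, rose by 1.98 (SE 0.27) and Cdh13, for T-cadherin, which lacks a cytoplasmic tail, by 1.16 (SE 0.17). β-Catenin (Ctnnb1, 0.57, adjusted p = 0.0873) and p120-catenin (Ctnnd1, 0.05, adjusted p = 0.801) did not pass.

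Junctional adhesion molecules are immunoglobulin-domain proteins of cell contacts. Jam3, at chr9:27097384-27155421 on the minus strand, had normalized CPM of 44.7, 56.8, 62.2, 71.3 and 94.9 in control and 46.2, 40.5, 40.2, 26.5 and 71.7 in Trpm7 cKO replicates. The genotypes overlapped, with Trpm7 cKO replicate 4 lowest and replicates 1 and 5 within the control range. The mean was 66.0 ± 18.8 in control and 45.0 ± 16.6 in Trpm7 cKO MuSCs (SD, n = 5 each), and the log2 fold change was −0.65 (SE 0.25, 95% interval −1.17 to −0.14, adjusted p = 0.0337 by edgeR). The call was lost without control replicate 4 (adjusted p = 0.0634) or 5 (0.112), or Trpm7 cKO replicate 2 (0.0566), 3 (0.053) or 4 (0.096), and with the leukocyte score (−0.80, adjusted p = 0.603). Jam2, at chr16:84774123-84825928 on the plus strand, had 3, 4, 3, 7 and 12 counts in control and 7, 4, 2, 12 and 4 in Trpm7 cKO replicates, or 6.25 ± 4.57 against 13.9 ± 6.89 normalized CPM (SD, n = 5 each). It was below the filter, and without the filter its log2 fold change was 0.93 (SE 0.45, adjusted p = 0.126 by edgeR). When Trpm7 cKO replicate 2 or 3 was left out, Jam2 passed the filter and was called higher. The libraries highest in Jam2 were Trpm7 cKO replicates 1, 4 and 5 (12.9, 19.9 and 22.1 normalized CPM) and control replicate 5 (13.9). Whether Jam2 was tested in these fits therefore depended mainly on the group where it was high, and the call gives no separate support.

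The ratio of Jam2 to Jam3 counts was 0.0517 to 0.146 in control (median 0.0727) and 0.182 to 0.75 in Trpm7 cKO libraries (median 0.28). It was higher in all 5 Trpm7 cKO libraries than in any control library (p = 0.00794, adjusted to 0.0159 over 2 ratios, exact two-sided permutation test), and rests on 2 to 12 Jam2 counts per library. Of 6 tested junction genes related to these, 1 fell and 2 rose in Trpm7 cKO, against 24.1% and 24.6% of all genes tested. Afdn, for afadin, which ties nectins and JAMs to actin, rose by 1.88 (SE 0.26, adjusted p = 7.18e-06 by edgeR). With the leukocyte score Afdn was at 1.39 and the call was lost (adjusted p = 0.284). F11r, for JAM-A, rose by 1.36 (SE 0.38, adjusted p = 0.00643), but by 0.74 and without passing (adjusted p = 0.104) once Trpm7 cKO replicate 4, the library highest in leukocyte markers, was left out. With the leukocyte score F11r was at −1.38. Pard3, for a polarity protein that binds JAMs, was lower by 0.50 on the log2 scale (−0.50, adjusted p = 0.0342), a call lost without control replicate 1 or 4 or Trpm7 cKO replicate 1, 2 or 3 (adjusted p up to 0.0872).

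Cdon, at chr9:35421128-35507652 on the plus strand, encodes an immunoglobulin and fibronectin repeat co-receptor that binds cadherins and promotes myogenic differentiation. Its normalized CPM were 114, 121, 125, 144 and 152 in control and 490, 374, 354, 152 and 337 in Trpm7 cKO replicates 1 to 5. Trpm7 cKO replicate 4, at 152.4, was barely above the highest control library, at 151.7, while the other 4 were far above. The mean rose from 131 ± 15.8 to 341 ± 121 (SD, n = 5 each), or 2.6-fold, with a log2 fold change of 1.38 (SE 0.22, 95% interval 0.91 to 1.84, adjusted p = 5.89e-05 by edgeR). It was 1.17 to 1.57 with single libraries left out and 2.29 with the leukocyte score (adjusted p = 0.0273). Without scaling, which compares counts from equal numbers of sorted cells, it was 0.20 and was not called (adjusted p = 0.624). The call therefore concerns the share of Cdon in the counts of a library. In Trpm7 cKO replicate 4 both the MuSC identity sum (3952) and Cdon were the lowest of the genotype.

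Of 5 tested genes listed with Cdon, 0 were lower and 2 were higher, against 24.1% and 24.6% of all genes tested. Kirrel, for a nephrin-like immunoglobulin protein of the family that acts in myoblast recognition in flies, had 11, 16, 7, 11 and 18 counts in control and 51, 45, 19, 32 and 18 in Trpm7 cKO replicates, against smaller totals. After normalization the groups were apart, at 13.4 ± 5.28 and 79.8 ± 18.9 CPM (SD, n = 5 each), with a log2 fold change of 2.54 (SE 0.26, adjusted p = 2.57e-07 by edgeR). Boc, for the co-receptor most related to CDON, rose by 1.28 (SE 0.44, adjusted p = 0.0206), on 3 to 19 counts per control library, and lost the call in 4 of 10 fits that left out 1 library (control replicates 1, 3 and 4 and Trpm7 cKO replicate 1). With DESeq2, Boc was at 1.23 and was not called (adjusted p = 0.0633). Without control replicate 5, which held 19 of the 39 control counts, its log2 fold change was 1.96 (adjusted p = 0.000489 by edgeR). Neogenin (Neo1, −0.06), Gas1 (0.10) and Ptch1 (0.11), receptors that work with CDON in netrin-family and hedgehog signalling, did not pass.

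Ptk2, for focal adhesion kinase, which relays integrin adhesion, lies at chr15:73205102-73423280 on the minus strand. Its normalized CPM were 62.6, 57.8, 65.4, 64.2 and 77.6 in control and 24.0, 31.3, 29.2, 58.0 and 66.2 in Trpm7 cKO replicates. Trpm7 cKO replicates 1 to 3 lay below all control libraries, and replicates 4 and 5, the 2 with the highest leukocyte sums, lay at control levels. The mean was 65.5 ± 7.32 in control and 41.7 ± 19.0 in Trpm7 cKO MuSCs (SD, n = 5 each), with a log2 fold change of −0.71 (SE 0.23, 95% interval −1.20 to −0.22, adjusted p = 0.0162 by edgeR). The call was lost without Trpm7 cKO replicate 1 (−0.56, adjusted p = 0.0551), and with the leukocyte score the value was −2.06 (adjusted p = 0.0773). Of 13 tested focal adhesion genes, 3 were lower and 1 was higher, against 24.1% and 24.6% of all genes tested. The lower genes were Ptk2b, for the related kinase PYK2 (−0.91, adjusted p = 0.00778 by edgeR), Itga7, for the laminin receptor subunit of muscle (−0.59, adjusted p = 0.00101), and Itgb1, for the β1 integrin subunit (−0.54, adjusted p = 0.00971). Tln2, for a talin of muscle attachments, rose by 1.47 (SE 0.21). Paxillin (Pxn), a substrate of focal adhesion kinase, was at −0.02 (adjusted p = 0.954).

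**Figure D3:**
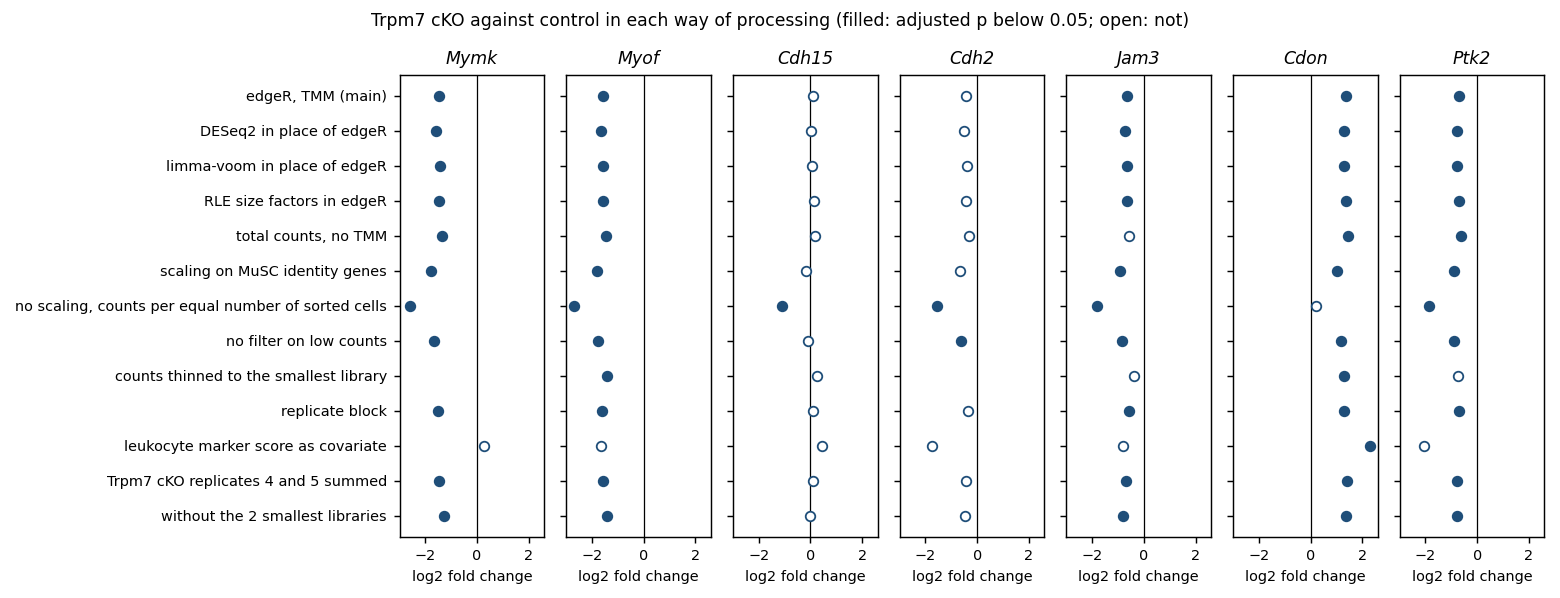
Log2 fold change of the 7 tested genes under each way of analysing the counts (x axis, log2 fold change of Trpm7 cKO from control; filled points, adjusted p below 0.05; open points, not called; no point for Mymk and Cdh2 with thinned counts, where they were not tested). Myof and Cdon keep their direction throughout, Mymk turns to 0.26 only with the leukocyte score, and Cdh15 lies on both sides of 0.

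The wider machinery of fusion moved in both directions. Of 86 genes listed by role as partners or regulators, 84 were in the table and 70 were tested, with 16 lower and 19 higher in Trpm7 cKO MuSCs, with a median log2 fold change of 0.16. These shares, 22.9% and 27.1%, are near the 24.1% and 24.6% of all genes tested. Among 10 tested fusion proteins and regulators, 3 were lower and 5 were higher. The largest changes were in Ehd2, for a membrane-remodelling ATPase (1.82, SE 0.24), Nfatc2, for a calcium-dependent transcription factor of muscle growth (1.6, SE 0.28), and Adam12, for a metalloprotease of regenerating muscle (1.42, SE 0.28). In each the genotypes did not overlap, as for 4 higher genes of these 10 and 16.6% of all genes tested. The 3 lower genes were Cd164 (−0.84), Ehd4 (−0.81) and the tetraspanin gene Cd81 (−0.67). Of 6 tested ferlin and membrane repair genes, Anxa5 (1.5, SE 0.16) and Ahnak (0.64, SE 0.14) rose and Anxa1 fell by 1.00 (SE 0.17), while the ferlin gene Fer1l5 had 0 counts in control and 1 in Trpm7 cKO libraries.

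Of 17 tested genes of actin remodelling at fusion sites, 6 were lower and 2 were higher, against 24.1% and 24.6% of all genes tested. Arf6, for a small GTPase of membrane traffic and actin, fell by 0.88 (SE 0.18, adjusted p = 0.000373 by edgeR). Its genotypes did not overlap, as for 4 lower genes of these 17 and 17.9% of all genes tested. The 2 higher genes were Elmo1 (2.27, SE 0.32) and Elmo2 (1.34, SE 0.24), whose products guide DOCK exchange factors to RAC1. With the leukocyte score, Elmo1 was at 0.58 (adjusted p = 0.74 by edgeR) and Elmo2 at 2.18 (adjusted p = 0.0439). The remaining lower genes, chosen after their values were seen, were Pak1 (−0.75), Trio (−0.69), Cdc42 (−0.60), Rac1 (−0.48) and Wasf2 (−0.42).

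**Figure D4:**
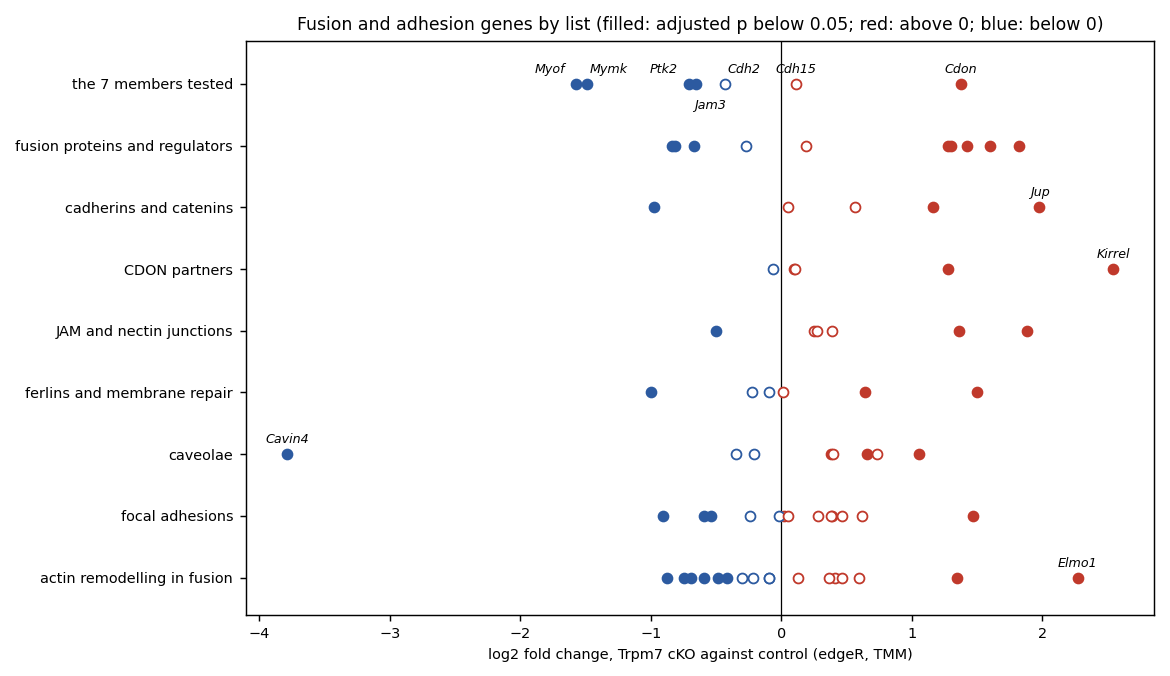
Log2 fold change (x axis, Trpm7 cKO from control) of each tested gene, by list (1 point per gene; filled, adjusted p below 0.05; open, not called; red above 0 and blue below 0). Cavin4 lies farthest below 0 at −3.79 and Kirrel farthest above at 2.54, and every list holds genes on both sides of 0. Cavin4 passed the filter only with control libraries and Kirrel mainly with Trpm7 cKO libraries.

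Over the 10 libraries, the genes with profiles closest to those of the members were named by the root mean square difference of centred log2 CPM, as a description. For Mymk they were Tceal8 (0.135), Mrpl36 (0.184) and Atp2a2 (0.208). For Myof they were Lrpprc (0.126), Heatr1 (0.132) and Hdac2 (0.147), and for Cdh15 they were Vegfa (0.110), Dag1 (0.150) and Dip2c (0.151). For Cdon they were Gadd45a (0.165), Serinc5 (0.170) and Pax7 (0.188), so that the MuSC transcription factor gene was among the closest. Pax7 itself rose by 1.19 (SE 0.18, adjusted p = 2.40e-05 by edgeR), while the myogenic factor genes Myod1 and Myog fell by 2.01 and 2.00. For Ptk2 they were Yeats4 (0.174), Prps2 (0.186) and Gatm (0.190), for Jam3 Olfml2b (0.232), Prpsap2 (0.242) and Cadm1 (0.280), and for Cdh2 Lsm7 (0.249), Scrib (0.301) and Usp38 (0.321). The profiles share library depth and genotype.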

How the data were processed

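Counts of UMIs per gene were deposited by the authors without normalization. Per the submitters' processing notes and the methods, UMI-tools 1.1.4, Trim Galore 0.6.10, HISAT2 2.2.1 (GRCm38) and featureCounts 2.0.6 were used, and DESeq2 1.30.1 for testing. The annotation release and strand setting are not given in the sources used here. Of 24620 entries, 12 repeated a symbol, and the entry with the larger total was kept. Genes were kept by filterByExpr (minimum count 10, minimum total 15), scaled by TMM and fitted with edgeR 4.0.16 in R 4.3.3 (robust quasi-likelihood, genotype only, Benjamini-Hochberg adjustment), leaving 7753 genes; normalized CPM are TMM-scaled, and profiles used a prior count of 2. The alternatives were DESeq2 1.42.0, limma-voom (limma 3.58.1), RLE, total counts, MuSC identity scaling, no scaling, no filter, thinning, a replicate block, a leukocyte score, Trpm7 cKO replicates 4 and 5 summed, and each library left out. Single values were compared by exact permutation over 252 splits. In simulated data the fit recovered 81 of 100 changes of 1 on the log2 scale and 100 of 100 changes of 2. It called 13 of 7543 unchanged genes. Those data had equal dispersion for all genes and balanced changes in few, well-counted genes, unlike the data here.

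The genes named were the 10 members, up to 3 called genes of largest change per related list, binding partners or paralogs, the 3 closest profiles and the label checks. Members and lists were chosen with earlier results of these data known. Gene positions came from GENCODE (GRCm38). Promoters came from RefSeq, with entries for 5 of the 10 members. No last 500 transcript bases of a member shared a match of 31 bases with another gene. Counts differed beyond sampling noise between all libraries of the same genotype, so no library was a duplicate deposit and each was counted once, which does not show that the libraries came from separate mice. Depth, from 205986 to 1097709 counts, limits genes of few counts. The intervals of the pooled counts of Mymx and Cavin4 cover counting error only, while those of the edgeR fold changes rest on the standard errors of the fit.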

Additional observations from a re-analysis of the deposited data

Results flagged for a closer look

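The summed level of erythroid markers in control replicate 5 was 178 normalized CPM, while the nearest control library was at 23.8 and the lowest at 1.99, a gap of 0.877 of the whole range against a critical value of 0.71 for 5 libraries. It was the 1 library that stood apart in this way among 38 groups of values examined. Chance gives about 1 flag per 20 groups, so a flag of this kind is expected by chance. Of the 10 genes, control replicate 5 was the highest control library for Jam3 (94.9 normalized CPM), Ptk2 (77.6), Cdon (151.7) and Jam2 (13.9) and the lowest for Cdh15 (210.7) and Dysf (1.16), while Mymk (46.3), Myof (242), Cav3 (4.63) and Cdh2 (59.0) lay within the range of the other control libraries.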

How the results depend on the processing

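Mymk, Myof, Cdh2, Jam3, Ptk2 and Cdon kept their direction under every alternative run, except Mymk with the leukocyte score as covariate (0.26); counts thinned to 205986 per library left Mymk and Cdh2 untested. Of the values for single named genes, 686 stayed on their side of the threshold with the same direction, 71 lost the call, 6 gained it and 33 changed sign. The cause was not tested in any of these cases.

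The number of these genes called lower, 4, became 1 with thinned counts, 0 with the leukocyte score and 3 with total counts. It was 3 to 4 with a library left out and 5 without the filter, which added Cdh2. Without scaling it was 6, with Cdh15 (−1.10, adjusted p = 0.00698 by edgeR) and Cdh2 (−1.57, adjusted p = 0.000255) added. The number called higher, 1, became 0 without scaling and was 1 to 2 with a library left out. The number past both thresholds, 1, became 2 with DESeq2, MuSC identity scaling, no filter or the replicate block, 5 without scaling, and 0 with total counts, thinned counts or without the 2 smallest libraries (Trpm7 cKO replicates 3 and 5, an alternative chosen after seeing the data), and was 0 to 2 with a library left out. Among related genes, the 16 called lower became 41 without scaling and 1 with the leukocyte score (13 to 16 with a library left out), and the 19 called higher became 2, 10 and 7 without scaling, with thinned counts and with the leukocyte score (16 to 24 with a library left out). Among those lost with the leukocyte score were Afdn, Nfatc2, Adam12, Tln2, Cavin4 and Ctnna1 (adjusted p = 0.113 to 0.378 by edgeR). Kirrel, Ehd2, Jup, Cdh13, Anxa5 and Elmo2 kept the call. Among those lost without scaling were Afdn, Jup, Cdh13 and Ehd2 (adjusted p = 0.0682 to 0.96), while Kirrel kept it. Without scaling, 66.6% of all genes were lower and 4.9% higher, and with MuSC identity scaling 29% and 15.5%.

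Signs changed as follows. With total counts, Neo1 was at 0.041, Pxn at 0.088 and Trpm7 at 0.0042. With MuSC identity scaling, Cdh15 was at −0.19 and Ctnnd1 at −0.21. Without scaling, Cdh15 was at −1.10, Cav1 at −0.70, Ctnnb1 at −0.61, Ctnnd1 at −1.11, Ahnak at −0.54, Cavin2 at −0.10, Cav2 at −0.52 and Pax7 at −0.0030. Without the filter, Cdh15 was at −0.10 and Ctnnd1 at −0.15. With DESeq2, Ctnnd1 was at −0.023, and with thinned counts Pard3 was at 0.0092. With the leukocyte score, Ctnnd1 was at −0.050, F11r at −1.38 and Trpm7 at 1.28. Without the 2 smallest libraries, Cdh15 was at −0.0086 and Pxn at 0.0063. With a library left out, Neo1 ranged from −0.27 to 0.073, Ctnnd1 from −0.012 to 0.15, Pxn from −0.15 to 0.089 and Trpm7 from −0.30 to 0.052.

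Libraries with the same replicate number did not deviate together (correlations −0.12 to 0.18, and 1 library of 5 closest to its own number), so no pairing by number was seen. Whether libraries of the same number shared a preparation was not tested. The replicate block gave 4 lower and 1 higher of these genes, 2 past both thresholds, and 1758 lower and 1814 higher genes in all, against 1866 and 1908.

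Leaving out Trpm7 cKO replicate 5, the smallest library, changed no call among the 7 genes. Depth left Dysf, Cav3, Jam2 and Mymx below the filter, and the leukocyte score did not overlap between genotypes, so that the score and the genotype cannot be told apart.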
